A study of Mus musculus with 22 samples.

Results

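The contractile genes of smooth muscle were followed in the terminal ileum, the last stretch of the small intestine, of NOD mice given antibiotics. They are 10 genes (Myh11, Acta2, Actg2, Des, Cnn1, Tagln, Lmod1, Smtn, Mylk and Synpo2) of the 18193 genes measured, taken by their symbols. Where a gene had several probe sets, which are the groups of array probes that report 1 transcript, the probe set with the highest average across the arrays was used. The 10 genes had 19 probe sets in all.

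All groups were of the NOD strain, which is inbred and prone to autoimmune diabetes. The series held 22 arrays in 6 groups: 3 STAT males and 3 STAT females, 5 PAT males and 3 PAT females, and 5 control males and 3 control females. STAT is antibiotic treatment below the therapeutic level, and PAT is antibiotic given at therapeutic doses in pulses. The sources used here do not give the drugs, doses, ages or the handling of controls. The STAT males titled BS145 and BS146, called STAT males 2 and 3, are shown apart from STAT male 1 throughout. Whether each sample is a separate animal is not stated in the labels. The p-values therefore reflect the spread between samples, and that spread may be technical.

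Smooth muscle forms the outer wall of the intestine and a thin layer below the mucosa, and its contraction mixes and moves the gut content. Calcium entering the cell activates myosin light chain kinase, which phosphorylates myosin and lets it pull on actin filaments. The filaments are anchored to dense bodies and to the cell membrane, and the genes of this apparatus are driven by serum response factor together with myocardin. The tissue sample was whole ileum as far as the labels say, so each value averages over muscle, epithelium and all other cells. In such bulk samples fewer smooth muscle cells and less RNA per cell cannot be told apart.

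All values below are log2 expression levels, on which a step of 1 is a doubling, and levels of different probe sets are not compared as amounts. All 10 genes had a mean above 6, from 7.64 for Lmod1 to 13.33 for Acta2, and 57.0% of all genes had a mean below that of Lmod1 against 99.4% below that of Acta2. The genes varied widely between samples of the same group. Their standard deviation within groups was 0.201 for Mylk and 0.204 for Lmod1, the smallest, and 0.531 for Cnn1, the largest, against a median of 0.158 over all genes with a mean of at least 6.

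Some arrays differed in ways that the groups do not describe. STAT males 2 and 3 had beta-actin signals at the 3-prime end that exceeded those at the 5-prime end, a readout of RNA integrity, by 0.59 and 0.60 on the log2 scale, against 0.28 to 0.42 in the other 20 arrays. Their titles belong to the later of the ranges of title numbers, with PAT male 5, STAT female 3 and control males 4 and 5. PAT female 1 had a mean deviation of 1.60 for 7 markers of lymphoid cells, against -0.21 to 0.14 in the other 21 arrays. A deviation is the level in an array minus the mean over all arrays.

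Myh11 encodes the heavy chain of smooth muscle myosin, the motor itself. Its level was 11.35, 12.02 and 12.09 in STAT males 1 to 3, 11.29, 10.80, 10.90, 11.58 and 10.65 in PAT males 1 to 5, and 11.14, 10.95, 11.24, 11.16 and 11.14 in control males 1 to 5. In females it was 11.77, 11.00 and 11.66 in STAT females 1 to 3, 11.02, 11.51 and 11.30 in PAT females 1 to 3, and 11.43, 11.46 and 10.80 in control females 1 to 3. STAT males 2 and 3 were the highest of all 22 arrays, all 3 STAT males lay above all 5 control males, and PAT males overlapped with both. Myh11 was 0.70 ± 0.21 (SE) higher on the log2 scale in STAT males than in control males, which did not pass the limma test (adjusted p = 0.14). It was 1 of the 10 genes whose STAT and control males did not overlap, where 6.18% of all genes did not overlap and 2.53% of all genes did so with STAT higher. In the other Myh11 probe set, 1418122_at (mean 7.45), STAT and control males did overlap. There STAT male 1 (7.16) lay within the range of the control males (7.12 to 7.51).

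Mylk encodes myosin light chain kinase, which switches the motor on. Its level was 12.55, 13.07 and 13.21 in STAT males 1 to 3, 12.51, 12.65, 12.46, 12.81 and 12.37 in PAT males 1 to 5, and 12.60, 12.57, 12.80, 12.76 and 12.68 in control males 1 to 5. In females it was 13.02, 12.61 and 12.76 in STAT females 1 to 3, 12.47, 12.73 and 12.49 in PAT females 1 to 3, and 12.91, 12.80 and 12.43 in control females 1 to 3. STAT males 2 and 3 again exceeded the other 20 arrays, STAT male 1 lay below every control male, and no groups of the same sex were apart. The difference of STAT and control males was 0.26 ± 0.14 (limma adjusted p = 0.38).

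Acta2 and Actg2 encode the smooth muscle actins, alpha of vessels and gut and gamma of the gut and other hollow organs. Acta2 was at 13.27, 13.68 and 13.71 in STAT males 1 to 3, 13.14, 13.25, 13.19, 13.53 and 12.77 in PAT males 1 to 5, and 13.25, 13.28, 13.45, 13.53 and 13.44 in control males 1 to 5. In females its level was 13.62, 13.17 and 13.68 in STAT females 1 to 3, 12.67, 13.37 and 13.18 in PAT females 1 to 3, and 13.65, 13.41 and 12.99 in control females 1 to 3. PAT female 1 and PAT male 5 were the lowest arrays, and STAT males 2 and 3 the highest by a margin of less than 0.1 over STAT female 3 and control female 1. The probe set of Acta2 is of the kind that may also bind transcripts of related genes, so its level may include other actins. Actg2 was at 12.18, 12.77 and 12.62 in STAT males 1 to 3, 11.79, 12.23, 11.99, 12.25 and 11.04 in PAT males 1 to 5, and 12.25, 12.04, 12.25, 12.65 and 12.42 in control males 1 to 5. For females the Actg2 levels were 12.70, 11.97 and 13.16 in STAT females 1 to 3, 11.32, 12.40 and 12.03 in PAT females 1 to 3, and 12.68, 12.32 and 12.13 in control females 1 to 3. The span of Actg2 was 2.12 over the 22 arrays, with PAT male 5 lowest, PAT female 1 next and STAT female 3 highest. For Acta2, Actg2 and Cnn1 each treatment overlapped with control in both sexes.

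The promoter of Acta2 is shown because its CArG elements, the binding motif of serum response factor, are a known feature of smooth muscle genes. RefSeq sequences on GRCm38.p6 run from 250 bases before to 50 bases after the start of transcription, and 7 of the 10 genes had one in the table used (all but Actg2, Myh11 and Tagln). The CArG box was searched by its pattern of a pair of C, 6 bases that are A or T and a pair of G, which reads alike on both strands, and again with 1 of those 6 bases allowed to be G or C. None of the 7 promoters held the strict box and 1, that of Acta2, held the looser one, against 1.63% and 9.98% of 32851 promoters. Acta2 had a pair of them, 84 and 34 bases before the start that the table gives. RefSeq's gene record of Acta2 on the same build begins farther upstream, so both elements lie inside that record. The first bases of the window lie outside it. Of all promoters 0.822% held 2 or more of the strict or looser kind. Myl9, a myosin light chain gene whose pattern was among the most similar to that of the 10 genes, had a strict box 161 and a looser one 99 bases before its start, and Fhl1, a muscle LIM protein described below, a strict box 102 bases before 1 of the starts that the table gives. Capitals mark these elements in the promoters of Acta2 at chr19:34255324-34255623 (minus strand), Myl9 at chr2:156775214-156775513 (plus strand) and Fhl1 at chrX:56779433-56779732 (plus strand), each 5′ to 3′.
Acta2: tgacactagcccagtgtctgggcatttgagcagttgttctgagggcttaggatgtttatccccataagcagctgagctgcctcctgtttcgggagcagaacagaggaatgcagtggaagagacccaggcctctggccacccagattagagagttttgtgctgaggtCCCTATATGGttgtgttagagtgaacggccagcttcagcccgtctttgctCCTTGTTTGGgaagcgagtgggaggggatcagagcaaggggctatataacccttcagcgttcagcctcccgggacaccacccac
Myl9: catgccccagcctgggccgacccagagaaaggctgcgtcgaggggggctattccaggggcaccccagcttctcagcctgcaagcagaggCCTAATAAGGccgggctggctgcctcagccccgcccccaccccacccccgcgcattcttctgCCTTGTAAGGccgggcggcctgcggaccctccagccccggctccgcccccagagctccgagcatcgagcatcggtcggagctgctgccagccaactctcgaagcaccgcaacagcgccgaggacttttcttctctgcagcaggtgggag
Fhl1: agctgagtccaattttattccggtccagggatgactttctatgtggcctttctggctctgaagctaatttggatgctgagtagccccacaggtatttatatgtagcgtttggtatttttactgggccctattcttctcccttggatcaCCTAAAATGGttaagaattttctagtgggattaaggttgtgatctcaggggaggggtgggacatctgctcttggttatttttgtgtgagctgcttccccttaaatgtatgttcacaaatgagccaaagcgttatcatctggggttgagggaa
A match describes the letters of this window and shows no binding, and a promoter without one may hold such an element elsewhere. The promoters shown were taken from those with a match, and the share with a match among the genes of similar pattern was not counted.

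Lmod1 encodes leiomodin, which starts new actin filaments in smooth muscle. Its level was 7.56, 8.04 and 7.97 in STAT males 1 to 3, 7.61, 7.44, 7.50, 7.87 and 7.45 in PAT males 1 to 5, and 7.62, 7.52, 7.63, 7.60 and 7.46 in control males 1 to 5. In females it was 7.80, 7.46 and 7.79 in STAT females 1 to 3, 7.61, 8.05 and 7.71 in PAT females 1 to 3, and 7.64, 7.66 and 7.11 in control females 1 to 3. The order of the arrays for Lmod1 differed from that for Cnn1: PAT female 2 was the highest array and control female 3 the lowest, and PAT female 1, which was lowest for Cnn1, lay near the middle. In females the PAT minus control difference of Lmod1 was 0.32 ± 0.16 (limma adjusted p = 0.249), the only one of the 10 genes besides Myh11 (0.04 ± 0.24) with a positive value there. Without control female 3 these were 0.14 for Lmod1 and -0.17 for Myh11.

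Cnn1, Tagln and Smtn encode calponin, transgelin and smoothelin, which bind actin filaments in contractile smooth muscle cells. Cnn1 was at 10.88, 11.67 and 11.49 in STAT males 1 to 3, 10.56, 10.91, 10.70, 10.92 and 9.62 in PAT males 1 to 5, and 11.05, 10.90, 10.99, 11.54 and 11.20 in control males 1 to 5. In females Cnn1 was at 11.58, 10.59 and 12.09 in STAT females 1 to 3, 9.56, 11.15 and 10.64 in PAT females 1 to 3, and 11.30, 10.94 and 10.58 in control females 1 to 3. Cnn1 had the widest range of the 10 genes, 2.53, and PAT female 1 and PAT male 5 stood below the next lowest array, PAT male 1, while STAT female 3 stood highest. Tagln followed the same order at the ends, from 11.78 in PAT female 1 to 12.98 in STAT female 3. Smtn ran from 8.03 in PAT male 5 and 8.08 in PAT female 1 to 9.56 in STAT male 3. For Tagln and Smtn the groups of each sex overlapped in every comparison of treatment with control.

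Des and Synpo2 belong to the scaffold of the cell: desmin forms the intermediate filaments of muscle, and synaptopodin 2 binds actin at dense bodies. Des was at 9.94, 10.77 and 10.65 in STAT males, 9.85, 9.94, 9.87, 10.35 and 9.43 in PAT males and 9.84, 9.93, 10.18, 10.47 and 10.18 in control males, and its highest array was STAT female 3 (10.97). Synpo2 was at 10.49, 11.16 and 11.22 in STAT males 1 to 3, 10.36, 10.12, 10.16, 10.62 and 9.65 in PAT males 1 to 5, and 10.42, 10.02, 10.71, 10.48 and 10.46 in control males 1 to 5. In females Synpo2 was at 10.91, 10.26 and 10.66 in STAT females 1 to 3, 9.77, 10.64 and 10.36 in PAT females 1 to 3, and 10.80, 10.55 and 9.81 in control females 1 to 3. STAT males 2 and 3 were the highest arrays for Synpo2, and STAT male 1 lay among the control males. In STAT against control males the difference was 0.54 ± 0.24 for Synpo2 and 0.33 ± 0.23 for Des, with limma adjusted p of 0.287 and 0.521.

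**Figure D1:**
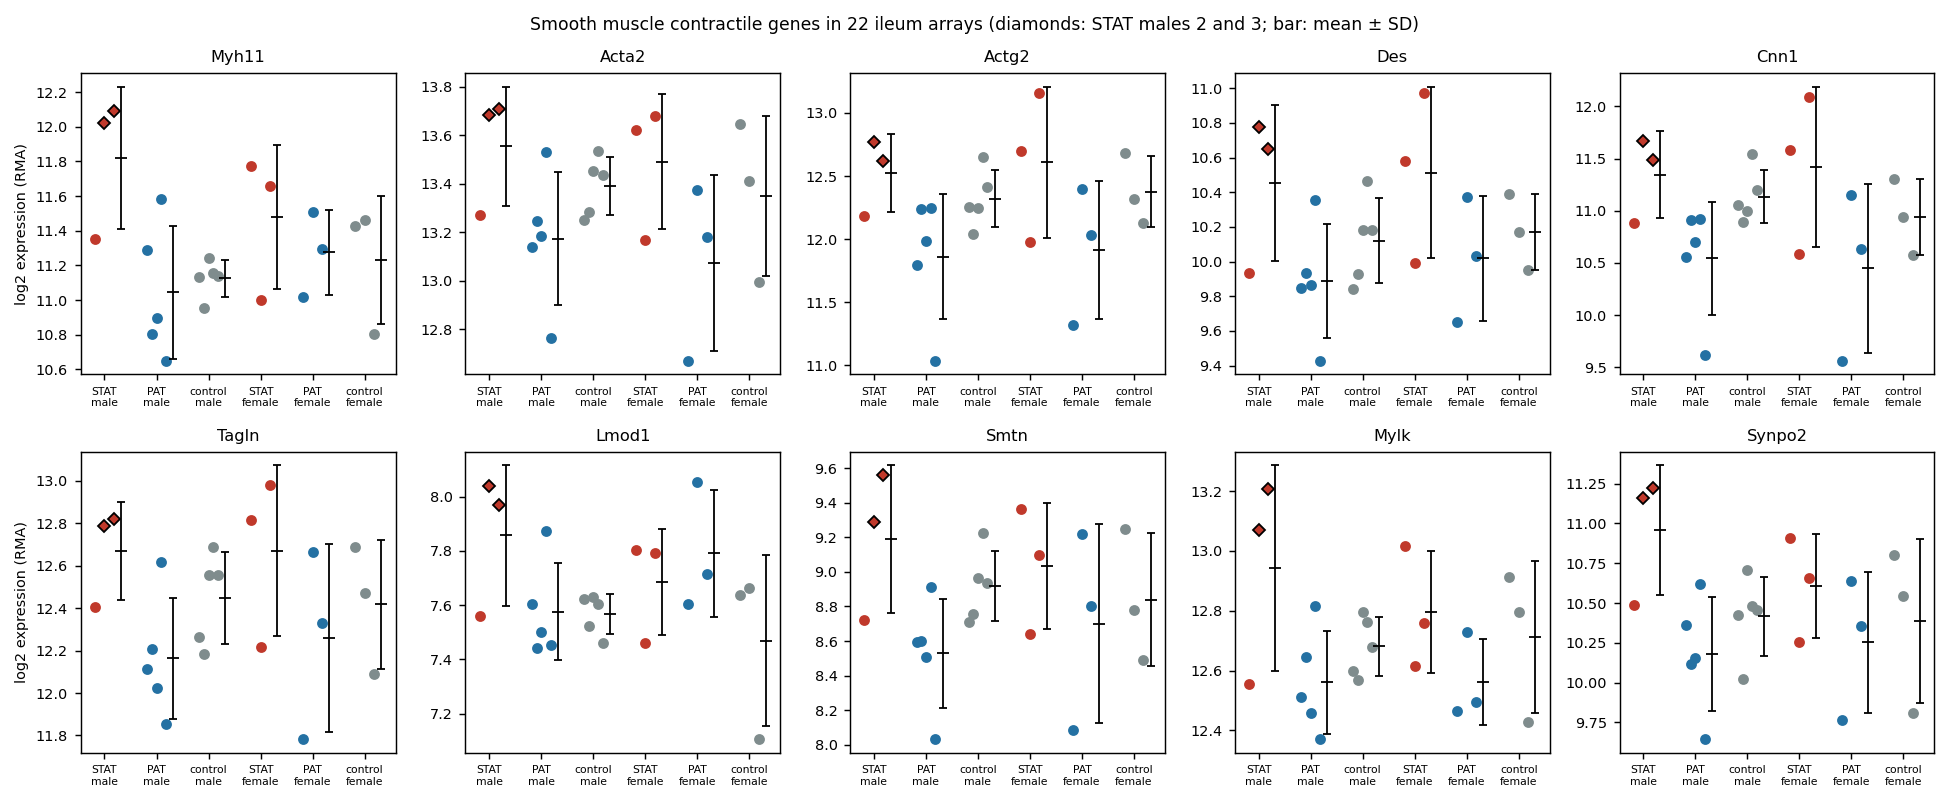
Log2 level (RMA) of each of the 10 genes in every array, by group on the horizontal axis, with 1 panel a gene. Points are arrays, diamonds are STAT males 2 and 3, and bars give the group mean ± SD. The diamonds lie above all other arrays for Myh11, Acta2, Mylk and Synpo2, and the lowest Cnn1 points are PAT male 5 (9.62) and PAT female 1 (9.56).

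The probe sets of a gene did not always tell the same story, as in Synpo2 and Acta2. Synpo2 is given first. Its chosen probe set 1435399_at had 11.16 and 11.22 in STAT males 2 and 3 and 10.66 in STAT female 3. Its probe set 1441206_at had 8.26 and 7.33 in those STAT males but 9.19 in STAT female 3, the highest of all arrays, and 1452879_at likewise had 7.23, 6.32 and 7.90. The STAT minus control difference in males was 0.54 ± 0.24 for the chosen probe set, -0.19 ± 0.41 for 1441206_at and -0.03 ± 0.29 for 1452879_at. The annotation does not say whether these probe sets report different transcripts of Synpo2. For Acta2 the STAT minus control difference in males was 0.16 ± 0.18 for the chosen probe set and 0.23 ± 0.23 for 1444105_at. The dim 1456658_at (mean 4.51) had -0.49 ± 0.15 (limma adjusted p = 0.128), with STAT males (4.01 to 4.45) below all control males (4.48 to 4.95). In Mylk all 3 probe sets were higher in STAT males 2 and 3 than in any control male, and in Myh11 both were.

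**Figure D2:**
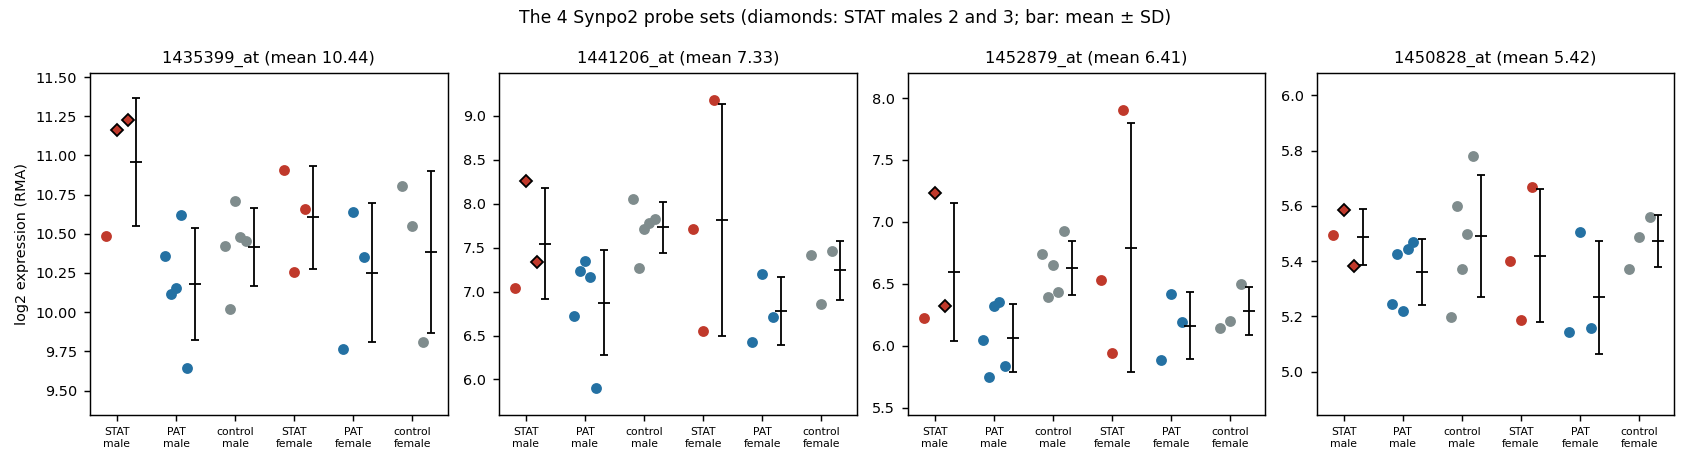
Log2 level (RMA) of the 4 Synpo2 probe sets in every array, by group on the horizontal axis, with points, diamonds and bars as in the plot of levels and 1 vertical scale a panel. STAT males 2 and 3 are highest only in 1435399_at, and STAT female 3 is highest in 1441206_at (9.19) and 1452879_at (7.90).

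The 10 genes moved together from array to array. Over the 22 arrays the 45 pairs of genes had Pearson correlations from 0.461 to 0.98 with a median of 0.862. Without STAT males 2 and 3 the median was 0.857, and after the group means were taken off it was 0.855, so the shared movement is present among samples of the same group. Actg2 and Cnn1 were the closest pair (0.98) and Actg2 and Lmod1 the loosest (0.461). These are descriptions over arrays that share groups, processing and tissue composition.

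Ordered by the mean deviation of the 10 genes, the highest arrays were STAT male 3 (0.54), STAT male 2 (0.53), STAT female 3 (0.49) and STAT female 1 (0.42). The lowest were PAT male 5 (-0.71), PAT female 1 (-0.61) and control female 3 (-0.36). STAT male 1 (-0.06) and STAT female 2 (-0.21) were below the mean, and PAT female 2 (0.21) and PAT male 4 (0.15) above it, so neither treatment had all of its arrays on 1 side of the mean. The high arrays differed in which genes led. In STAT males 2 and 3 the largest deviation was that of Myh11 (0.74 and 0.81), whereas in STAT female 3 it was that of Cnn1 (1.15), with Mylk at 0.07. The low PAT arrays were led by Cnn1, at -1.33 in PAT male 5 and -1.38 in PAT female 1, with Lmod1 at -0.19 and -0.04, and in control female 3 the lowest was Synpo2 (-0.63).

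**Figure D3:**
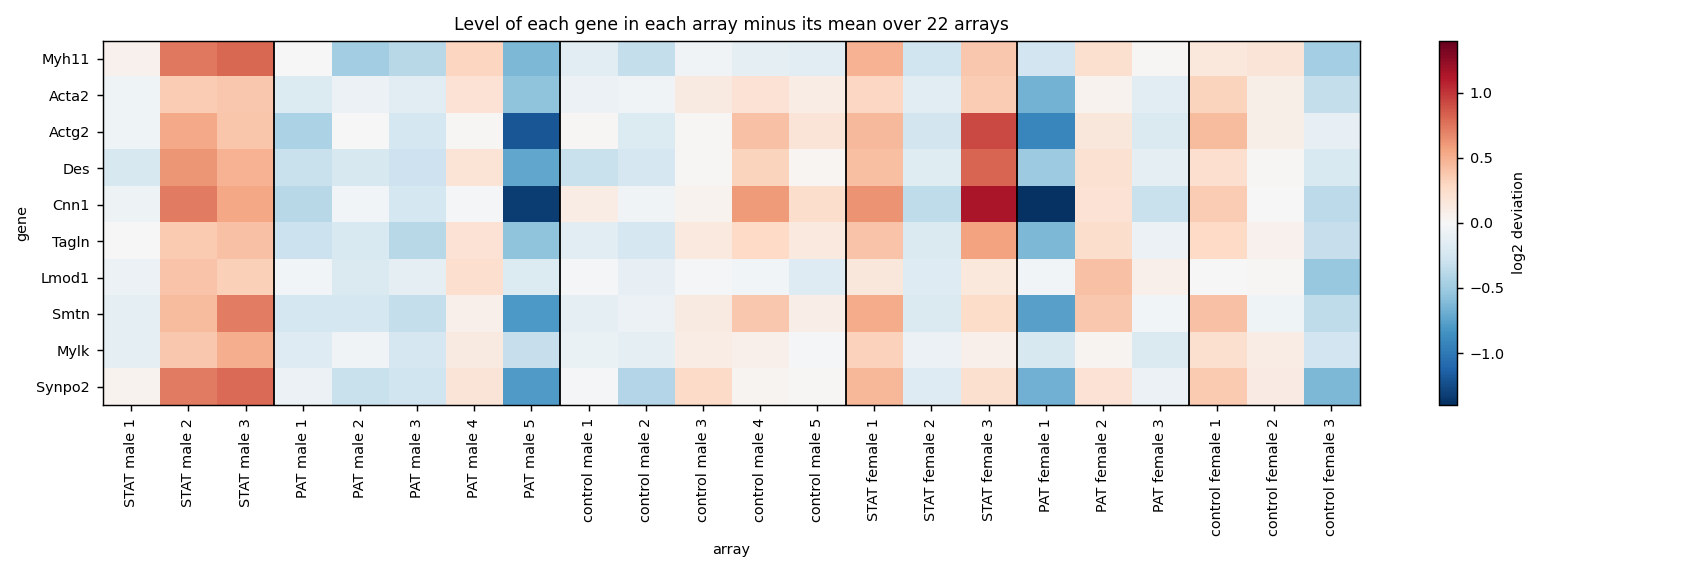
Deviation of each of the 10 genes (rows) in each array (columns, grouped by treatment and sex) from its mean over 22 arrays, in log2 units, red above and blue below. The columns of PAT male 5 and PAT female 1 are blue, most of all for Cnn1 (-1.33 and -1.38), and those of STAT males 2 and 3 are red in every row.

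The first comparison asks whether treatment below the therapeutic level was followed by other levels of these genes. All 10 had a positive STAT minus control difference in males, with a median of 0.266 against -0.008 over all genes, and in females, with a median of 0.227 against 0.006. Limma called none of the 10 in males, females or the mean of the sexes (0% of all genes in each), where a call is an adjusted p under 0.05 over all genes. At an unadjusted p under 0.05 there were 2 of 10 in males (Myh11 and Synpo2), 0 in females and 2 in the mean, against 2852, 602 and 2391 of 18193 genes. The interval of the difference in males was 0.25 to 1.14 for Myh11, -0.37 to 0.77 for Actg2 and -0.50 to 0.92 for Cnn1 (95% confidence, limma), so an absent call does not show equal levels. In females the positive values rest on few arrays: without control female 3 the median was 0.034, with Acta2 at -0.04, Mylk at -0.06 and Synpo2 at -0.07, and without STAT female 3 Actg2 was at -0.04.

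The values in STAT males rest on STAT males 2 and 3. Without both, the median difference of the 10 genes in males was -0.124 and that of Myh11 was 0.23. Without STAT male 1, limma called 2 of the 10, Myh11 at 0.93 (adjusted p = 0.012) and Mylk at 0.46 (adjusted p = 0.0354), beside 1973 of all genes. Within the later title range, 2 STAT males against 2 control males, the median was 0.366 and Myh11 was at 0.91 (limma adjusted p = 0.081), and within the earlier range, 1 against 3, the median was -0.039. With the beta-actin difference of the ends as a covariate the median was -0.022 and Myh11 was at 0.29. The part of RNA integrity, as read by beta-actin, in these values cannot be told apart from that of STAT males 2 and 3. These arrays alone had the large beta-actin difference, while their Gapdh difference did not set them apart from all other arrays.

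Pulsed antibiotic was compared with control next. Limma called none of the 10 genes in males (9.02% of all genes called), in females (3.35%) or in the mean of the sexes (11.0%). At an unadjusted p under 0.05 there were 0, 0 and 2 of the 10, against 4555, 3795 and 4391 of all genes. Of the 10 differences 9 were negative in males, 8 in females and 9 in the mean, with medians of -0.235, -0.151 and -0.207 against -0.011, -0.006 and -0.005 over all genes. The 2 with the smallest p were Actg2 and Cnn1. Actg2 differed by -0.46 ± 0.19 in the mean of the sexes (limma adjusted p = 0.141), and Cnn1 by -0.54 ± 0.24 (adjusted p = 0.17). Without PAT female 1 these were -0.31 and -0.32. In males the values rest in part on PAT male 5. Its mean deviation over the 10 genes was -0.71, against -0.27 to 0.15 in the other PAT males and -0.18 to 0.21 in control males. In females alone the median of the 10 genes was 0.056 without PAT female 1, with Des, Tagln, Smtn and Synpo2 at 0.03 to 0.17, and -0.317 without control female 3. Myh11, with -0.02 ± 0.15 and an interval of -0.33 to 0.30, had nearly the same mean in both groups, while Lmod1 had 0.17 ± 0.10. The dim probe set 1456658_at of Acta2 (mean 4.51) was the only one of the 19 called among probe sets tested on their own, at -0.40 ± 0.10 (limma adjusted p = 0.0169), where the chosen Acta2 probe set had -0.25 ± 0.12 and 1444105_at had -0.002 ± 0.16.

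Between the antibiotic regimens in males, all 10 genes had a negative PAT minus STAT difference, from -0.28 for Lmod1 to -0.80 for Cnn1, with a median of -0.613 against 0.006 over all genes. Limma called 1 of them, where it called 8.71% of all genes, 5.24% as lower in PAT. Myh11 was lower by 0.78 ± 0.21 on the log2 scale in PAT males than in STAT males (1.71-fold, limma adjusted p = 0.0302), although the groups overlapped: PAT male 4 (11.58) lay above STAT male 1 (11.35). Against control males Myh11 differed by -0.08 ± 0.19 in PAT males and by 0.70 ± 0.21 in STAT males. Synpo2 had -0.78 ± 0.24 with an adjusted p of 0.0513, just above 0.05, and 9 of the 10 had an unadjusted p under 0.05, against 4469 of all genes. Of the probe sets that were not chosen, 1425505_at of Mylk was called when each was tested on its own (-0.58 ± 0.16, limma adjusted p = 0.0316). The other Myh11 probe set, 1418122_at, was not called there (-0.448 ± 0.165, limma adjusted p = 0.101). In 0 of the 10 were the groups of PAT and STAT males apart, against 11.6% of all genes. The call of Myh11 was lost without STAT male 2, STAT male 3, PAT male 2, PAT male 3 or PAT male 5, with values from -1.01 to -0.64 over all 8 arrays left out in turn. The count of the 10 genes called was 5 without STAT male 1 and 4 without PAT male 4. Without both STAT males 2 and 3 Myh11 was at -0.31 (limma adjusted p = 0.777), and with the beta-actin covariate -0.42 (adjusted p = 0.39). These comparisons and those with control share the STAT or PAT arrays and are not independent.

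In females 9 of the 10 genes had a negative PAT minus STAT difference, with a median of -0.382, and Lmod1 was at 0.10 ± 0.16. Limma called 0 of 10 there, against 0.863% of all genes, and 3 had an unadjusted p under 0.05 against 2758 of all genes. Cnn1 had the largest size, -0.97 ± 0.38, with an interval of -1.77 to -0.17 and an adjusted p of 0.225, and it was -0.53 without PAT female 1, where the median of the 10 genes was -0.179. The difference between males and females in the effect of STAT or PAT, and that between control females and control males, gave no limma call among the 10 genes, against 0%, 0.00550% and 0.0550% of all genes (0, 1 and 10 genes). None of the 10 had an unadjusted p under 0.05 in any of these.

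**Figure D4:**
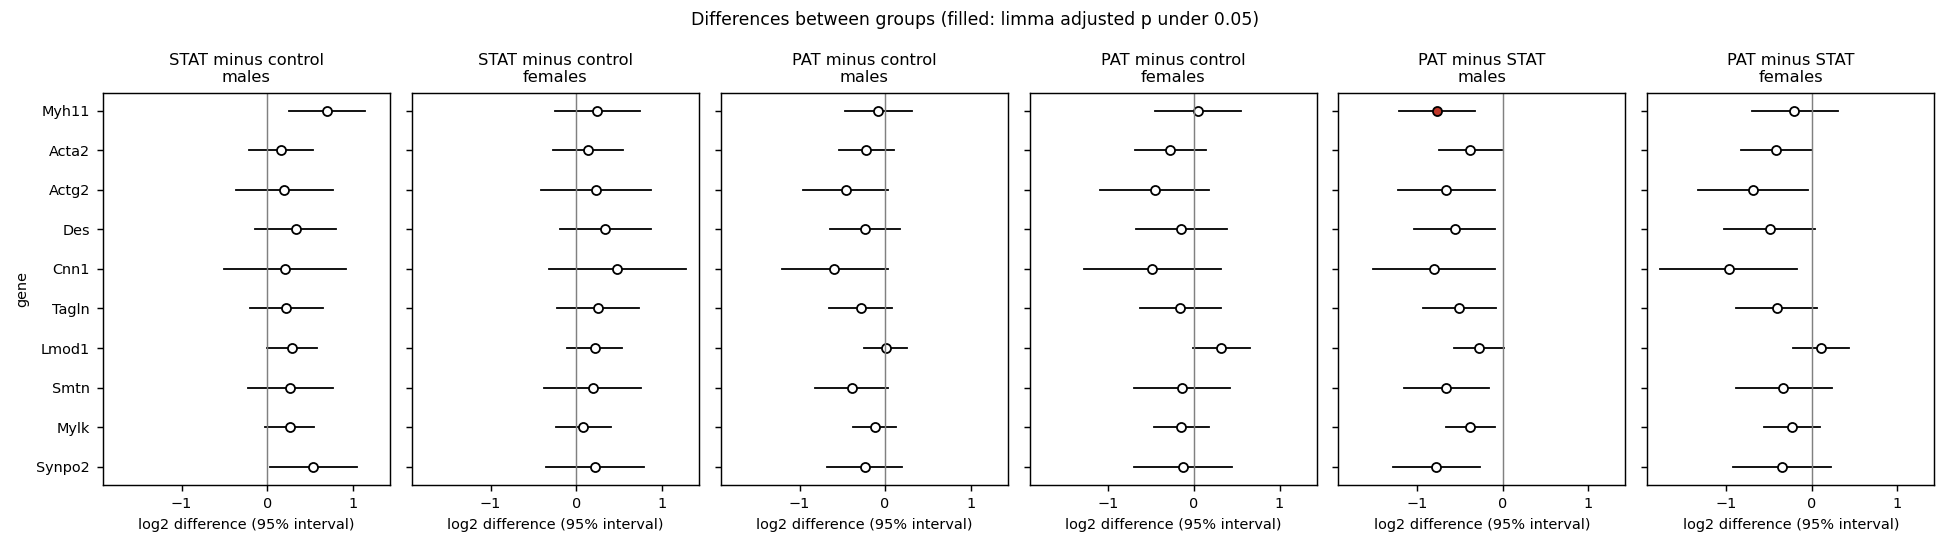
Log2 difference of each of the 10 genes (vertical axis) with its 95% interval from limma (horizontal axis) in 6 comparisons, 1 panel each. Filled points have an adjusted p under 0.05. The only filled point is Myh11 in PAT minus STAT males (-0.78), and most intervals cross 0.

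Other genes of the contractile apparatus were taken by role. Of 19 contractile partners none was called with STAT in either sex, and the smallest p in males belonged to Flna, the actin cross-linker filamin A (0.63 ± 0.22, limma adjusted p = 0.169), and Itga8, an integrin subunit (0.57 ± 0.20, adjusted p = 0.173). Their median in STAT males was 0.269, close to that of the 10 genes. In PAT mice, averaged over the sexes, 1 of 19 was lower, where 6.38% of all genes were, so the share is near the background. Fhl1, a LIM domain protein of muscle, was at 11.40 in PAT and 12.01 in control mice and fell by 0.61 ± 0.15 (limma adjusted p = 0.0106). The value was -0.41 without PAT female 1, and -0.28 as the mean of its probe sets (adjusted p = 0.0569) and -0.40 with the Gapdh covariate (adjusted p = 0.193), which both ended the call. With PAT in males Fhl1 was at -0.24 ± 0.18 (adjusted p = 0.43), and with PAT in females it was at -0.98 ± 0.23 (adjusted p = 0.0276), a call lost without any one of the control females or without PAT female 1 (-0.59).

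Genes that handle calcium or carry the signals to contract numbered 10, of which 1 was higher with PAT in the mean of the sexes, where 4.61% of all genes were. Atp2a2, the pump that returns calcium to its store, was at 12.75 in PAT and 12.29 in control mice, a rise of 0.46 ± 0.07 (limma adjusted p = 0.000244), and the groups did not overlap (1.70% of all genes). It stayed called whichever of the 16 arrays was left out, but its value was 0.205 as the mean of its probe sets (adjusted p = 0.0829). Atp2a2 is expressed in many cell types besides muscle. In STAT males the smallest p of this list were those of Atp2a2 (0.33 ± 0.10, adjusted p = 0.127) and of Cacna1c, a calcium channel (0.34 ± 0.17, adjusted p = 0.327).

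Relaxation through cyclic GMP and myosin phosphatase was followed in 10 genes, and none was called with PAT or STAT against control. In STAT males the smallest p were those of Ppp1r12a, the subunit that targets the phosphatase to myosin (0.31 ± 0.11, adjusted p = 0.165), and Mrvi1, a target of the cyclic GMP kinase (0.43 ± 0.18, adjusted p = 0.255). Among 11 genes of transcription control, Klf4 rose by 0.59 ± 0.14 with PAT in the mean of the sexes (limma adjusted p = 0.00905). It was at 12.88 in PAT and 12.29 in control mice, with no overlap of the groups (1.70% of all genes). In that mean 4.61% of all genes were called higher and 6.38% lower. By sex, limma called 1 of the 11 higher and 1 lower in males (9.02% of all genes called), and 0 in females (3.35%). Klf4 represses contractile genes in cultured smooth muscle cells and is also abundant in the gut epithelium. Mrtfb, a coactivator of serum response factor, fell by 0.28 ± 0.08 (adjusted p = 0.0223), a call that was lost without control female 3 or PAT female 3 and with the mean of its probe sets (-0.10) or the Gapdh covariate (-0.31, adjusted p = 0.0694). In STAT males no gene of this list was called, and Klf4 (-0.44 ± 0.20, adjusted p = 0.282) and the coactivator myocardin, Myocd (0.36 ± 0.21, adjusted p = 0.423), had the smallest p.

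The genes most similar in pattern were sought among 11441 other genes with a mean of at least 6, by Pearson correlation with the mean of the 10 genes. Over 22 arrays they were Tpm2 (0.976), Csrp1 (0.974), Pdlim7 (0.966), Tpm1 (0.959), Jph2 (0.958), Sh3bgr (0.954), Pdlim3 (0.954), Cryab (0.936), Cald1 (0.93) and Myl9 (0.93). Of these 10, 7 were in the list of contractile partners, among them the tropomyosins Tpm1 and Tpm2 and caldesmon (Cald1). Over the 20 arrays without STAT males 2 and 3 the first was again Tpm2 (0.973), and Optc and Hspb6 took the place of Cryab and Myl9. In PAT against STAT males Cryab, a small heat shock protein, was lower by 1.13 ± 0.26 (limma adjusted p = 0.0134). Pdlim3, an actinin-binding protein, was lower by 0.81 ± 0.21 (adjusted p = 0.0217). Jph2, Sh3bgr and Hspb6 were also called lower there, where 5.24% of all genes were. Tpm1, Tpm2, Csrp1, Pdlim7, Cald1, Myl9 and Optc were not called. All were picked for following the 10 genes over the same arrays, so their differences give no separate support.

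Markers of other cell types of the gut wall were read beside these genes. In STAT males 2 and 3 the mean deviation of 12 measured neuron markers was 0.49 and 0.47, against 0.02 in STAT male 1 and -0.10 to 0.18 in control males. That of 3 markers of interstitial cells of Cajal, the pacemaker cells of the gut, was 0.67 and 0.28 (STAT male 1 -0.11, control males -0.10 to 0.23). Fibroblast markers were at 0.33 and 0.51 (0.20 in STAT male 1, -0.24 to 0.44 in control males), and 10 epithelial markers were at -0.45 and -0.31 (0.02, and -0.05 to 0.10). The epithelial markers did not all fall in STAT males 2 and 3. Cdh1 (12.77 and 12.73) was above its mean of 12.52, and Fabp6 (14.26 and 14.41, mean 14.29) and Cdx1 (9.85 and 9.83, mean 9.85) lay about theirs. The others were below their means, such as Alpi (11.39 and 11.61, mean 12.42) and Lgals4 (14.30 in both, mean 14.37). The 7 markers of pericytes and vascular smooth muscle, cells that also express contractile genes, were at 0.37 in both STAT males 2 and 3 (-0.03 in STAT male 1, -0.17 to 0.04 in control males). Endothelial markers were at 0.12 and 0.37 there (0.11, and -0.27 to 0.24), and glial markers at 0.14 and 0.17 (-0.18, and 0.01 to 0.14). Mesothelial markers were at -0.35 and -0.54 (0.13, and -0.34 to 1.0). Adipocyte markers were at -1.58 and -0.35 (1.26, and -1.28 to 2.04). Over all arrays the adipocyte list ran from -1.60 in control female 3 to 2.04 in control male 3. Of 7 markers of skeletal muscle, Myh4, Tnnt3, Myh1 and Tnnc2 had means of 3.90, 4.10, 4.42 and 5.13, and Myl1, Acta1 and Ckm had means of 7.13, 7.57 and 7.59. The skeletal muscle list stood at 0.12 and 0.00 in STAT males 2 and 3. Its genes went different ways there. Myl1 (7.68) and Tnnc2 (5.47) were at their highest over all arrays in STAT male 2, and Ckm (7.90 and 7.85) was above its mean in both. Acta1 (7.29 and 7.15), Myh1 (4.25 and 4.15) and Tnnt3 (4.05 and 4.04) were below their means in both, and Myh4 (4.01 and 3.82) lay on either side. The part of these cell types in the levels of the 10 genes was not tested.

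The low arrays shared negative values for several lists, fibroblast, neuron and Cajal cell markers among them, and differed in others. Low fibroblast markers were not particular to them, with -0.39 in STAT female 2 and -0.30 in PAT male 1. PAT male 5 was low in neuron markers (-0.27), Cajal cell markers (-0.25) and fibroblast markers (-0.39) with epithelial markers at 0.12. PAT female 1 had lymphoid markers at 1.60, endothelial markers at 0.39 and epithelial markers at -0.24, with fibroblast markers at -0.37, Cajal cell markers at -0.18 and neuron markers at -0.11. Control female 3 was low in neuron (-0.38), Cajal cell (-0.48) and fibroblast markers (-0.51). STAT female 3, high for Cnn1, Actg2, Des and Tagln, had neuron markers at -0.05 and Cajal cell markers at -0.13, unlike STAT males 2 and 3, and fibroblast markers at 0.39.

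**Figure D5:**
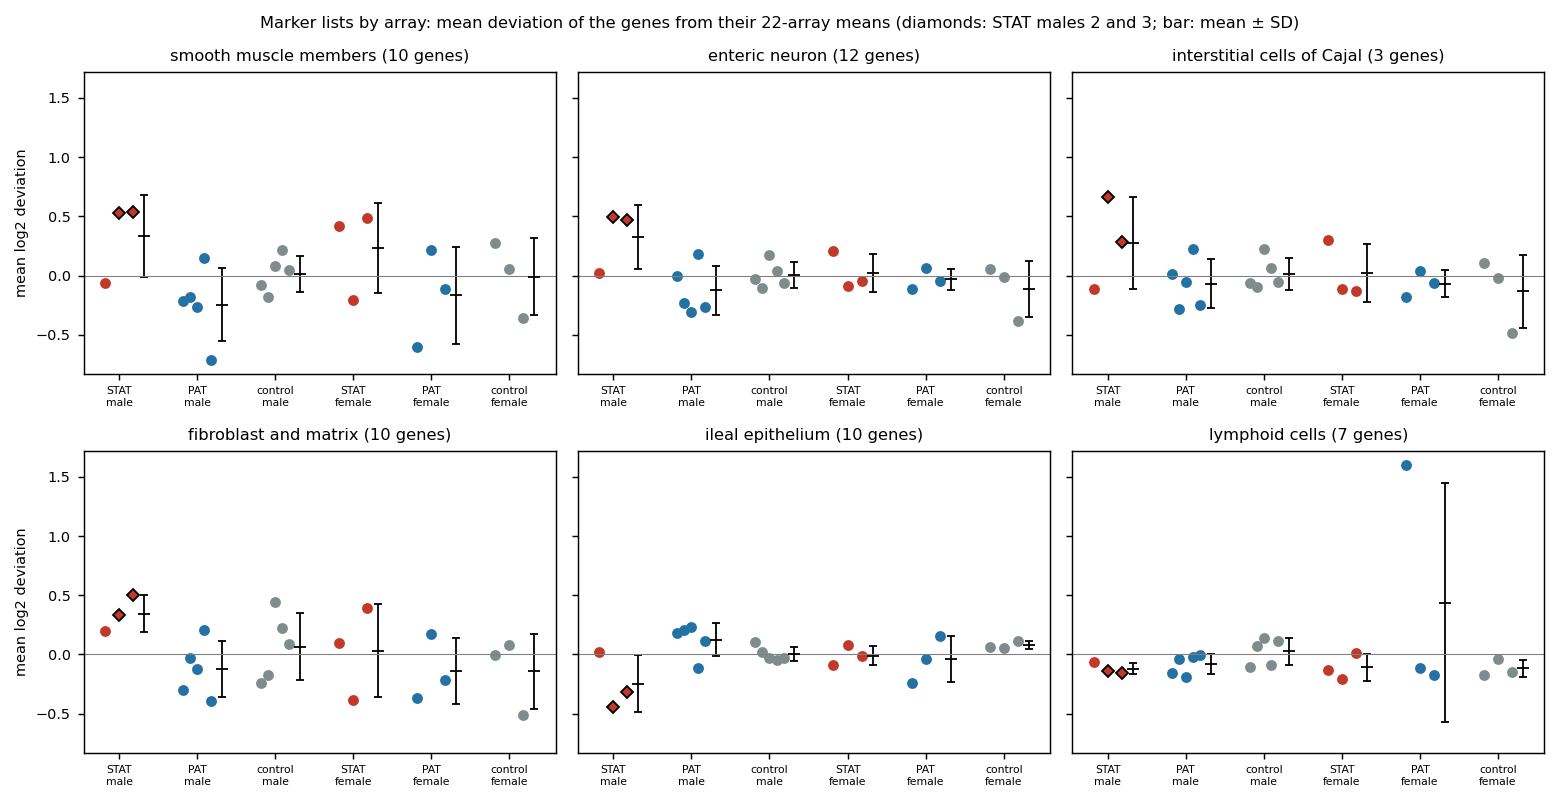
Mean log2 deviation of 6 lists of genes from their 22-array means (vertical axis) in every array, by group on the horizontal axis, with points, diamonds and bars as in the plot of levels. STAT males 2 and 3 are high for smooth muscle (0.53 and 0.54) and neurons (0.49 and 0.47) and low for epithelium (-0.45 and -0.31), and PAT female 1 stands apart for lymphoid cells (1.60).

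Between PAT and STAT males several of these lists held called genes. Limma called 4 of 19 contractile partners lower (Pdlim3, Flna, Hspb6 and Itga8), 3 of 10 relaxation genes lower, 3 of 12 neuron markers lower, 2 of 10 fibroblast markers lower, 1 of 3 Cajal cell markers lower and 5 of 10 epithelial markers higher in PAT males. Of all genes 5.24% were lower and 3.47% higher there. Without STAT males 2 and 3 none of these was called, beside 62 of all genes, and the median of the 10 contractile genes was -0.217.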

How the data were processed

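RNA of terminal ileum was extracted with TRIzol and RNeasy columns and labelled with biotin for Affymetrix arrays, per the labels' protocols. The authors deposited 1 log2 value for each probe set and array. RMA and affy are the tools that the submitters' processing notes name, and their versions were not found there. The RMA method includes background correction, quantile normalization and a summary over the probes of a set. RMA gives no detection call and pulls dim values together, so fold changes of dim probe sets are understated. The table held 45101 probe sets on 22 arrays with no missing value, and column medians lay between 5.68 and 5.79. The number of arrays limits the precision.

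Names of probe sets are those of the platform annotation, which can be old: 34945 had 1 gene symbol, 932 several and 9160 none, besides 64 controls. The probe set of highest mean stood for a gene, which left 18193 genes. Groups came from the treatment and sex in the labels. Limma 3.58.1 in R 4.3.3 fitted 1 mean for each of 6 groups to all arrays (16 residual and 4.88 prior degrees of freedom), and p-values are two-sided and adjusted by Benjamini-Hochberg over all genes. The script was tested on simulated data. Tables and figures were made in Python 3.11.15. Errors beside differences are standard errors of limma. The 10 genes and the lists were chosen with earlier results of these data known, so the pattern of the 10 genes gives no independent support to it. Genes named from the other lists are up to 4 called genes of smallest p per comparison of treatment with control, or, where none was called, up to 2 of smallest p in STAT males, and the 10 genes of highest correlation. Genes named in the comparison of PAT with STAT males were chosen after their values were seen. Some genes of the lists were not analysed here, and counts are over the genes measured. The alternatives covered the choice of probe set, a filter on dim genes, normalization, variance prior, array weights, covariates for the ends of Gapdh and beta-actin, the title range, the samples fitted and each array left out.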

Additional observations from a re-analysis of the deposited data

Results flagged for a closer look

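Among the 20 sets of 5 arrays tested (10 genes in PAT males and in control males), 1 array stood apart. The Cnn1 level of PAT male 5 was 9.62, and its gap to the nearest of the other PAT males was 0.72 of the range of the group, above the critical share of 0.71 for 5 samples. The other PAT males lay between 10.56 and 10.92. Chance flags about 1 in 20 groups, and 20 were tested.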

How the results depend on the processing

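No paired analysis was possible because the labels give no replicate numbers that groups share. The count of the 10 genes called in STAT against control males was 0, with array weights 4 (Myh11, Lmod1, Mylk and Synpo2, beside 4069 of all genes), and 0 to 2 with each array left out. In the mean of the sexes it was 0, with array weights 3 (Myh11, Lmod1 and Synpo2, beside 2288 of all genes), and 0 to 1 with an array left out. In PAT against STAT males it was 1. It was 2 with only genes of mean at least 6, with columns centred on their medians and with an intensity trend in the prior variance, and 10 with array weights (4741 of all genes against 1585). It was 0 with the beta-actin covariate (199 of all genes), with the title range as a term (1016), without STAT males 2 and 3 (62) and with only the groups compared (153), and 0 to 5 with an array left out. The causes of these changes were not tested, except that fewer arrays entered 2 of these fits. The other 8 comparisons kept a count of 0 of the 10 genes under every alternative run, while the count of all genes ran from 756 to 3089 in PAT against control in the mean of the sexes (1999), from 951 to 2530 in males (1641) and reached 1524 in females (610; 123 to 751 with an array left out), and it ran from 43 to 640 in PAT against STAT females (157). Of 2410 values of the 10 genes under alternatives, 49 were called in either fit and 0 of these changed sign. Of the 2361 others 169 changed sign, with sizes of up to 0.449 as reported and up to 0.394 under the alternative. Arrays of 3 or 5 a group, and probes that report no detection, limit what these values can show.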

Other observations

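Some markers of other cells of the gut wall were called in PAT against control mice averaged over the sexes, where limma called 11.0% of all genes, 4.61% as higher and 6.38% as lower. Pdgfrb, the receptor that marks pericytes and some fibroblasts, rose by 0.49 ± 0.11 (limma adjusted p = 0.00648), and stayed called whichever of the 16 arrays was left out. Kcnj8, a potassium channel subunit of pericytes, fell by 0.40 ± 0.11 (adjusted p = 0.0189), a call lost without control female 1 or PAT female 1. Fabp7, a fatty acid binding protein of glia, fell by 0.34 ± 0.10 (adjusted p = 0.0303) and lost its call without any 1 of 5 arrays, control females 1 to 3, PAT female 3 and control male 3. Of 8 endothelial markers 3 were higher in the mean of the sexes, against 4.61% of all genes: Kdr, a receptor of vascular growth factor (0.42 ± 0.11, adjusted p = 0.0155), Plvap, of vessel wall diaphragms (0.49 ± 0.14, adjusted p = 0.0298), and Lyve1, a marker of lymphatic vessels (0.27 ± 0.08, adjusted p = 0.0407). By sex, Kdr was at 0.13 in males and 0.71 in females, Plvap at 0.17 in males and 0.81 in females, and Lyve1 at 0.09 in males and 0.46 in females. The median of the 8 was 0.062 in males and 0.557 in females. The PAT effect in males minus that in females was -0.58 ± 0.22 for Kdr, -0.64 ± 0.28 for Plvap and -0.37 ± 0.17 for Lyve1, and none passed the limma test (adjusted p of 0.18, 0.238 and 0.248). The call of Kdr was lost without PAT female 1 or control female 3, that of Plvap without any 1 of 5 arrays and that of Lyve1 without any 1 of 9, PAT female 1 and control female 3 among them in both. Pdgfrb, Kcnj8, Kdr, Plvap and Lyve1 were not called with the Gapdh covariate.

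The contractile genes did not all shift alike between arrays. A difference between the mean deviation of Actg2 and Cnn1 and that of Myh11 and Lmod1, pairs chosen after their values were seen, had a median of -0.29 in the 8 PAT arrays (-1.0 to 0.32), 0.00 in the 6 STAT arrays (-0.11 to 0.77) and 0.21 in the 8 control arrays (-0.06 to 0.59). It was 0.06 and -0.11 in STAT males 2 and 3. The groups overlapped, and no test was made.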
